A study of Schizosaccharomyces pombe with 3 samples.

Results

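On the tiling array of *Schizosaccharomyces pombe* (fission yeast) used here, the probes matched to a gene were every other one in number, from which odd- and even-numbered probes were taken to read opposite strands. Every statement on strands below rests on that inference, and which parity reads which strand of the genome was not settled. The 2 stretches described here are places where both parities were about equally bright in wildtype cells. The boundary stretch holds the 680 probes numbered 151281 to 151960, which lie between *grc3* of chromosome III and *cid14* of chromosome I in the order of the array, and the array end stretch holds the last 663 probes, numbered 173401 to 174063, which follow *red1* of chromosome I. They make up 1343 of the 174063 numbered probes, or 34 of the 4352 windows of 40 probe numbers. The stretches were chosen by their wildtype signal on both strands, so that signal is given as a description only, and since it is also the denominator of every ratio, the ratios are not fully independent of the choice.

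Total RNA depleted of ribosomal RNA (by probes that remove rRNA) was copied with oligo(dT) and random primers, and mutant cDNA (Cy5) was hybridised with wildtype cDNA (Cy3) on 3 arrays, each from log phase cells grown in YEA medium at 30°C. In 2 arrays, called replicates 1 and 2, *dhp1-1* cells (strain p1088) were set against wildtype cells (p1087), and in 1 array *din1Δ* cells (p1044) were set against another wildtype (p344). The *dhp1-1* strain carries a C-terminally truncated, temperature-sensitive *dhp1* allele partly replaced by *ura4+*, held at a permissive temperature, with *otr1R(Sph1)::ura4+*, *mat2::ade6+* and *Mat1 Msmt0*. The question of the arrays was how loss of function of each gene changes RNA across the genome. No array had its dyes exchanged, so a change in the mutant and a preference of a probe for Cy5 cannot be told apart. The paper reports biological replication for its genome-wide analysis, but under the methods of another assay and without naming the arrays. Whether the 2 *dhp1-1* arrays came from separate cultures is therefore not certain. The p-values measure the spread between these arrays, which may be technical.

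Dhp1 is the nuclear 5′-3′ exoribonuclease of fission yeast, known as Rat1 in budding yeast and Xrn2 in animals. It degrades uncapped RNA and takes part in ending transcription by RNA polymerase II. Din1 is its binding partner and the ortholog of budding yeast Rai1. The ends of fission yeast chromosomes carry telomere repeats with subtelomeric heterochromatin inward of them, and both ends of chromosome III carry the tandem ribosomal DNA. In heterochromatic repeats transcripts can arise from both strands and are kept low by RNA degradation and by silencing of transcription.

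Probe numbers were set against genes by matching runs of every other probe to the listed values of 36 genes, all of which were placed. The run matched to *grc3*, a polynucleotide kinase that acts in rRNA processing, ended at number 150508, and that matched to *cid14*, the poly(A) polymerase of the TRAMP complex, began at 152864. The boundary stretch therefore lies in the gap between these genes. Where within that gap the chromosomes meet was not determined, nor whether the stretch spans that point. The run of *red1*, a zinc-finger protein of meiotic mRNA elimination, ended at 171869, before the array end stretch. In the RefSeq gene table (assembly ASM294v3), 4 of the 10 outermost genes at each end of chromosome III were rRNA genes, against 0 of 10 at each end of chromosomes I and II. Probe sequences and positions were not used here, so the genes under the stretches are not named, and strands are called odd and even after the probe numbers.

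The wildtype signal, by which the stretches were chosen, is described first. With each stretch divided into windows of 40 probe numbers, the mean log2 Cy3 signal of the 20 odd and the 20 even probes differed by a median of 0.32 in the 17 boundary windows (0.10 to 1.35) and by 0.48 in the 17 array end windows (0.004 to 1.08), against 1.66 over the 4318 windows of the rest of the array. At the edges the difference was 1.55 in the window before the boundary stretch and 0.75 in its first window, 0.29 in its last window and 0.36 in the window after it. It was 1.80 before the array end stretch and 0.22 in its first window. At the lower edge of each stretch this measure thus fell, which the choice of the stretches by that signal favours. Within the boundary stretch, windows 5, 8 and 13 still reached 1.02, 1.08 and 1.35. Past the upper edge of the boundary stretch the strands were still alike. Neighbouring probes, of opposite parity, correlated in wildtype signal with r of 0.44, 0.59 and 0.50 over the 679 pairs of the boundary stretch and 0.43, 0.55 and 0.46 over the 662 pairs of the array end stretch (arrays of *dhp1-1* replicate 1, replicate 2 and *din1Δ*), against -0.12, 0.12 and -0.02 over the whole array. These probes share arrays and neighbouring sequence. The windows were not matched to the rest of the array for brightness, and 2 strands that are both near background differ little. In boundary window 16, for example, the strands differed by 0.32 at 6.95 (odd) and 6.63 (even) log2. How much of the likeness is a shared lack of signal was not tested.

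Both stretches were mostly dim. The median window stood at 8.48 log2 in the boundary stretch and 7.51 in the array end stretch, against 8.62 in the rest of the array. The share of probes with wildtype signal well above background was 59.1%, 57.8% and 54.3% in the boundary stretch (in the order of arrays above) and 46.6%, 45.1% and 40.3% in the array end stretch, against 71.7%, 67.3% and 67.2% over all probes. No spot in the stretches was saturated. The brightest windows in wildtype were windows 7 (13.83 log2), 8 (9.92) and 3 (9.41) of the boundary stretch and windows 16 (11.65), 15 (8.21) and 3 (8.01) of the array end stretch. Each stretch therefore held 1 sharp maximum, and the even and odd probes rose and fell together around it, but the maxima lay at different places within the stretches. Over the 34 tiles (the odd or even probes of a window) the wildtype profiles of the stretches correlated with r of -0.33 in the same order and 0.13 with 1 stretch reversed and its strands exchanged.

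**Figure D1:**
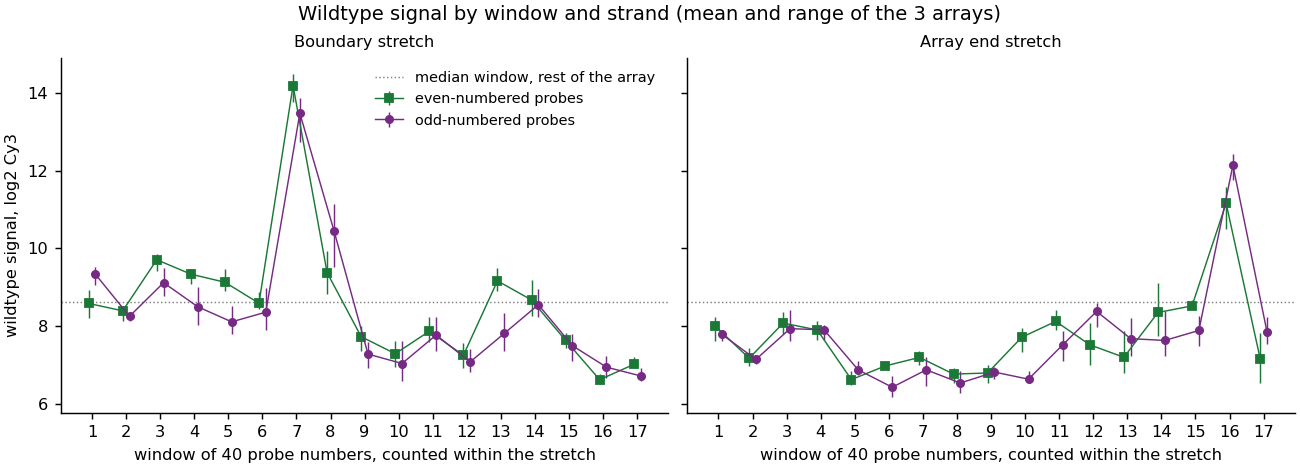
Wildtype signal (log2 Cy3, y axis) of the even-numbered (squares) and odd-numbered (circles) probes in each window of 40 probe numbers (x axis) of both stretches, as the mean of 3 arrays with bars from the lowest to the highest array. Both strands peak in window 7 of the boundary stretch, at 14.18 on the even and 13.47 on the odd strand, and in window 16 of the array end stretch, at 11.16 on the even and 12.13 on the odd strand.

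Averaged over all its probes, the boundary stretch stood at log2 ratios of 0.20 and 0.17 in *dhp1-1* replicates 1 and 2, relative to wildtype, and at 0.14 in *din1Δ*. The *dhp1-1* mean of 0.18 ± 0.02 (SD, n = 2), a 1.14-fold ratio, did not pass the test (limma across 8715 features, SE 0.09, adjusted p = 0.124). The even probes alone averaged 0.24 and passed (adjusted p = 0.0466), and the odd probes averaged 0.13 and did not (adjusted p = 0.283). The even average includes the even probes of windows 7 and 8, at 1.99 and 0.89, and was not computed without them. The array end stretch averaged 0.06 and 0.13 in *dhp1-1* and 0.02 in *din1Δ*, with a *dhp1-1* mean of 0.10 ± 0.06 (SD, n = 2; adjusted p = 0.458). The difference between the stretches in *dhp1-1* (array end minus boundary, -0.09, SE 0.09) did not pass the test (adjusted p = 0.490). Most of the boundary value lay in 2 of its windows: without windows 7 and 8 it was 0.10 and 0.07 in *dhp1-1* and 0.06 in *din1Δ*, over 600 probes. These windows were left out after their values were seen, and no test was made of the rest.

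In the boundary stretch 9 of 34 tiles (26.5%) were higher in *dhp1-1* than in wildtype and 1 (2.94%) was lower, against 18.9% and 10.4% of all 8704 tiles of the array. In the array end stretch 7 of 34 (20.6%) were higher and 0 lower. With limma, 2 array end tiles were lower at an unadjusted p under 0.05, and the other settings tried called between 0 and 5. The median tile stood at 0.10 in the boundary stretch and 0.06 in the array end stretch, against 0.02 over all tiles. The shares of higher tiles were close to the background. The highest ratios lay in a few windows of each stretch, and similar places elsewhere on the array are given below.

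The even strand of window 7 of the boundary stretch had log2 ratios of 2.25 and 1.73 in *dhp1-1* and 1.68 in *din1Δ*. All 3 were far above the rest of the stretch, and this was 1 of 17 tiles of the array more than 1.6-fold higher than wildtype on all 3 arrays (9 tiles were as far below wildtype). Its *dhp1-1* mean of 1.99 (SE 0.10) passed the test with an adjusted p of 6.96e-12. The odd strand of the same window, nearly as bright in wildtype, stood at 0.51 and 0.66 in *dhp1-1* (adjusted p = 3.04e-05) and 0.31 in *din1Δ*. Both tiles of the window were thus higher in *dhp1-1*, and the even one held the larger ratio on each array. The odd tile includes probes 151555, 151557 and 151559, beside the bright run described below, at 2.12, 1.87 and 2.03 in replicate 1. In replicate 2 they stood at 1.07, 1.37 and 1.37. The odd probes of that run averaged 0.25 and 0.56. In window 8 the even strand stood at 0.87 and 0.92 in *dhp1-1* (adjusted p = 1.10e-07) and 0.51 in *din1Δ*, above its odd strand at 0.10 and 0.50 in *dhp1-1* (adjusted p = 0.0266) and 0.33 in *din1Δ*. The odd strand of window 8 thus rested mainly on replicate 2.

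The first window of the boundary stretch did not pass the test in *dhp1-1* on either strand: its odd strand stood at 0.06 and -0.10 (adjusted p = 0.903) and its even strand at -0.06 and -0.10 (adjusted p = 0.538), with 0.18 and -0.13 in *din1Δ*. The last window, number 17, was dim in wildtype (6.87 log2) yet rose on both strands. Its odd strand stood at 0.50 and 0.41 in *dhp1-1* (adjusted p = 0.000443) and 0.25 in *din1Δ*, and its even strand at 0.39 and 0.30 in *dhp1-1* (adjusted p = 0.00474) and 0.31 in *din1Δ*, the 3 arrays lying close together. The wildtype signal exceeded background clearly at only 30%, 20% and 10% of its odd probes (replicate 1, replicate 2 and *din1Δ* array). For its even probes the shares were 40%, 30% and 25%, so most of these ratios are not exact. In window 5 the even strand also rose, with 0.44 and 0.30 in *dhp1-1* (adjusted p = 0.00321) and 0.39 in *din1Δ*. Both strands of window 9 rose slightly in *dhp1-1*, by 0.24 on the odd and 0.33 on the even strand (adjusted p = 0.0452 and 0.00648), with *din1Δ* at -0.05 and -0.10.

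The lowest boundary tiles lay in windows 11 and 15. The even strand of window 15 fell, to -0.43 and -0.33 in *dhp1-1* (adjusted p = 0.00218), with *din1Δ* at -0.13. Its odd strand stood at -0.16 and -0.22 in *dhp1-1* (adjusted p = 0.110) and -0.19 in *din1Δ*, and the odd strand of window 11 at -0.22 and -0.16 in *dhp1-1* (adjusted p = 0.105) and -0.28 in *din1Δ*. In the even strand of window 11, *dhp1-1* stood at -0.02 and -0.30 (adjusted p = 0.212) and *din1Δ* at -0.12. All 4 of these tiles were thus below 0 on every array, and 1 of them passed the test. The 4 highest tiles of *din1Δ* included the even strand of window 13, at 0.14 and -0.02 in *dhp1-1* and 0.36 in *din1Δ*.

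**Figure D2:**
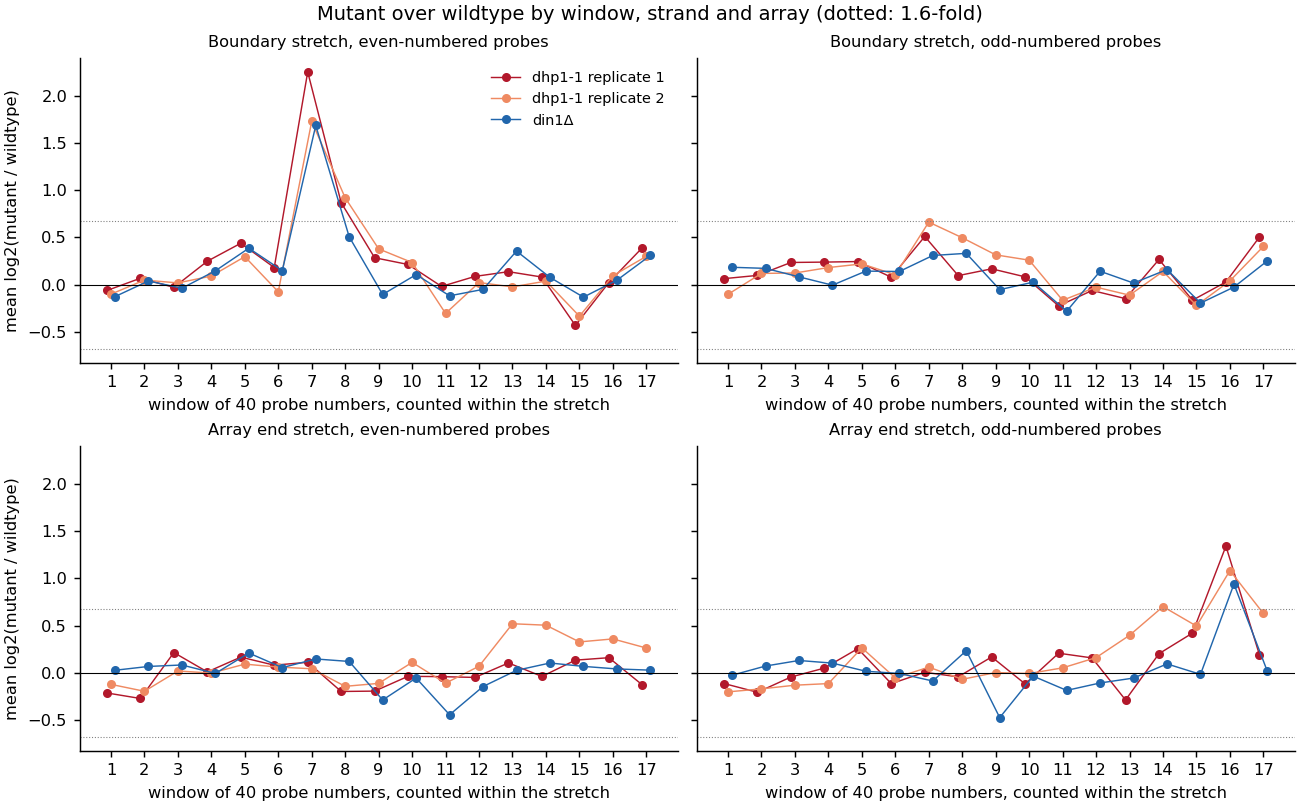
Mean log2(mutant / wildtype) (y axis) of each tile of same-strand probes by window (x axis) in the boundary stretch (top) and the array end stretch (bottom), even-numbered probes left and odd-numbered right, 1 line for each array. The even strand of boundary window 7 stands at 2.25, 1.73 and 1.68 and the odd strand of array end window 16 at 1.34, 1.08 and 0.94, and past 1.6-fold (dotted, 0.678) lie otherwise only the even strand of boundary window 8 on both dhp1-1 arrays and the odd strand of array end window 14 in replicate 2.

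In the array end stretch the highest tile was the odd strand of window 16, at 1.34 and 1.08 in *dhp1-1* (adjusted p = 2.36e-09) and 0.94 in *din1Δ*. Its even strand stood at 0.16 and 0.36 in *dhp1-1* (adjusted p = 0.0347) and 0.04 in *din1Δ*. As in the boundary stretch, the tile with the highest ratio on all 3 arrays lay in the window brightest in wildtype, but here the odd strand and not the even strand was the high one. The odd strands of the windows around it were higher in *dhp1-1* as well: 0.42 and 0.49 in window 15 (adjusted p = 0.000400), 0.20 and 0.70 in window 14 (adjusted p = 0.00207) and 0.19 and 0.63 in the 23-probe window 17 that closes the array (adjusted p = 0.00338), with *din1Δ* at -0.02, 0.09 and 0.01. On the even strand, window 17 stood at -0.13 and 0.26 in *dhp1-1* (adjusted p = 0.660) and 0.03 in *din1Δ*. From window 13 to 17 replicate 2 was above replicate 1 in 9 of 10 tiles, the exception being the odd strand of window 16, and in window 13 they disagreed most, with -0.29 and 0.40 on the odd strand (adjusted p = 0.773) and 0.10 and 0.52 on the even strand (adjusted p = 0.0208). The calls of windows 13, 14 and 17 therefore rest mainly on replicate 2, which lay on a different slide from the other 2 arrays; the part of the slide was not tested.

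The start of the array end stretch was the low side. Window 1 stood at -0.11 and -0.20 on the odd strand (adjusted p = 0.195) and at -0.21 and -0.12 on the even strand (adjusted p = 0.166) in *dhp1-1*, with *din1Δ* at -0.03 and 0.03. Window 2 stood at -0.21 and -0.17 on the odd (adjusted p = 0.117) and -0.27 and -0.20 on the even strand (adjusted p = 0.0504) in *dhp1-1*, with *din1Δ* at 0.07 on both strands. In window 8 the even strand stood at -0.20 and -0.14 in *dhp1-1* (adjusted p = 0.159) and 0.12 in *din1Δ*, and its odd strand at -0.04 and -0.07 against 0.23 in *din1Δ*. None of these tiles passed, although both *dhp1-1* arrays were below 0 in each. The odd strand of window 5, at 0.26 on both *dhp1-1* arrays (adjusted p = 0.0294) and 0.02 in *din1Δ*, did pass, while its even strand stood at 0.17 and 0.09 in *dhp1-1* (adjusted p = 0.298) and 0.21 in *din1Δ*. The wildtype signal was well above background at only 35%, 20% and 15% of the odd probes of window 5, so most of their ratios are not exact. Window 7 had its even strand at 0.11 and 0.04 in *dhp1-1* and 0.15 in *din1Δ*.

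Seen probe by probe, many of the high ratios lay in short runs that were very bright on both strands in wildtype. Others, given below, lay outside these runs in probes dimmer in wildtype, above all on the *dhp1-1* arrays. Runs were defined, after their values had been seen, as probes with a mean wildtype signal of at least 12 log2, at most 3 numbers apart, with at least 4 such probes of each parity, and they are described here with no test. The boundary stretch held 2 such runs, of 31 probes (151523 to 151553) and 9 probes (151567 to 151575), and the array end stretch held 1, of 17 probes (174015 to 174031). In the first boundary run the 15 even probes averaged 18.38, 18.10 and 18.49 log2 in the mutant channel and 15.03, 15.24 and 15.96 in the wildtype channel (*dhp1-1* replicates 1 and 2 and *din1Δ*). After loess normalisation, which lowered these ratios, their mean log2 ratio was 2.39, 1.93 and 2.06, or 5.25-, 3.80- and 4.16-fold. The 16 odd probes of the run averaged 15.14, 15.75 and 15.94 in the mutant channel and 13.97, 14.51 and 15.33 in the wildtype channel, with ratios of 0.25, 0.56 and 0.28. In the mutant channel the even strand was thus brighter than the odd strand by 3.25, 2.35 and 2.55 log2, and in the wildtype channel by 1.06, 0.74 and 0.64.

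The other runs looked alike. In the second boundary run the 4 even probes stood at mean ratios of 1.85, 1.82 and 1.59 and the 5 odd probes at 0.32, 0.75 and 0.18. In the array end run the 9 odd probes stood at 2.37, 1.81 and 2.27, with 18.19, 18.19 and 18.26 log2 in the mutant channel and 14.87, 15.42 and 15.56 in the wildtype channel, and the 8 even probes at 0.06, 0.32 and 0.26. Its odd strand exceeded the even strand by 2.36, 1.75 and 1.51 log2 in the mutant channel, whereas in the wildtype channel the strands were within 0.55 log2 of each other. Some probes broke the pattern on every array. The odd probe 151541 stood at 1.87, 1.04 and 1.90, above the odd probes on both sides of it, and probe 174015, at 0.72, 1.31 and -0.16, was the lowest odd probe of the array end run on each array. Of the 2 *dhp1-1* arrays, replicate 2 had the lower ratio on the raised strand of each run and the higher ratio on the other strand.

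**Figure D3:**
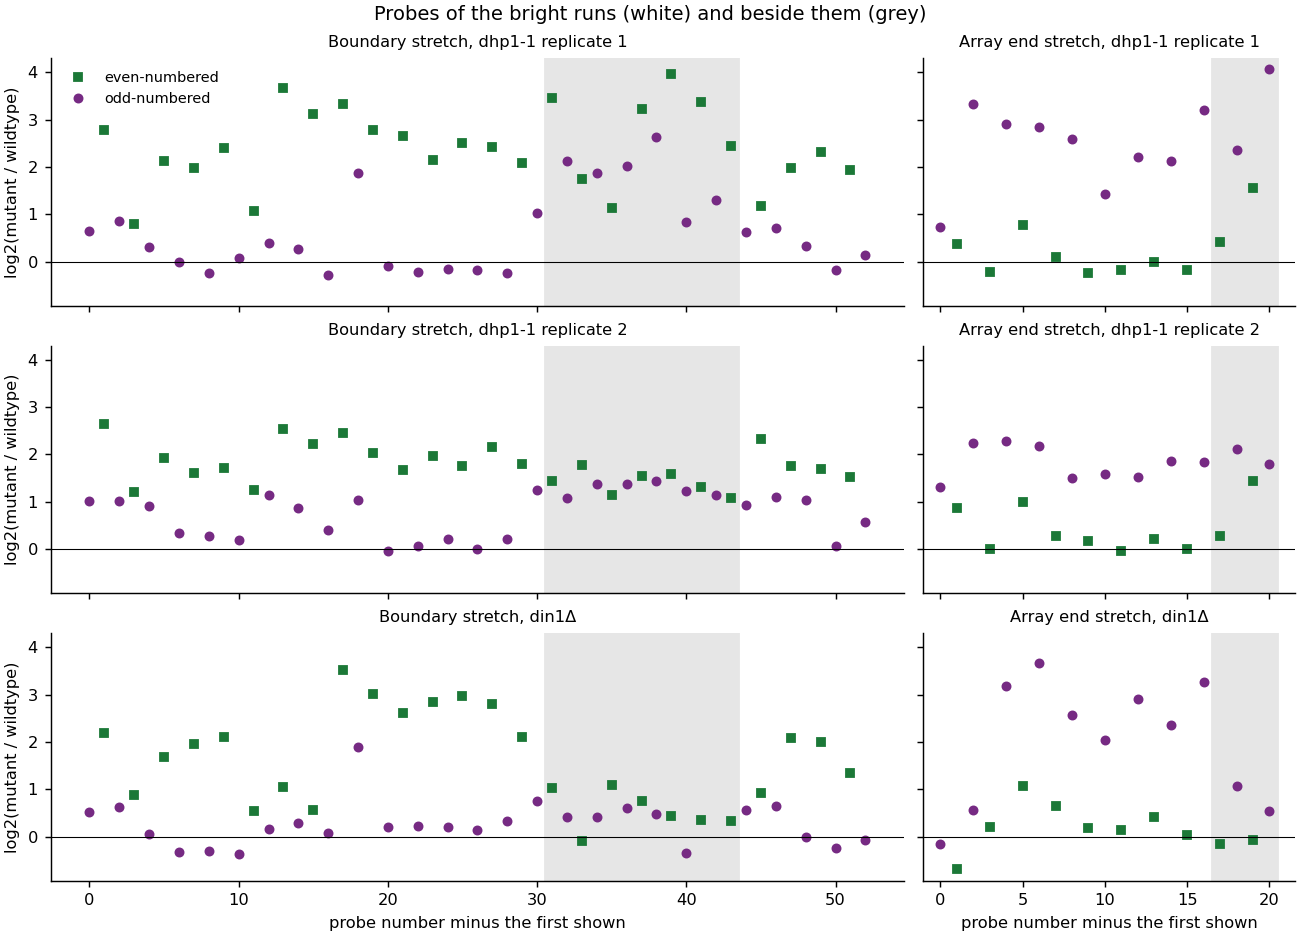
Log2(mutant / wildtype) of each probe (y axis) by its place (x axis, probe number minus the first one shown) in the boundary runs (left) and the array end run (right), 1 row for each array. Even-numbered probes (squares) average 2.39, 1.93 and 2.06 in the first boundary run and odd-numbered probes (circles) average 2.37, 1.81 and 2.27 in the array end run, and in the grey parts beside the runs the arrays differ.

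The ratios of the array end run resembled those of part of the first boundary run. Its 17 ratios were set against all stretches of 17 probes of the boundary stretch that were measured on every array, in both orders (1124 places). The most alike was 151536 to 151552 in the same order, with r of 0.83, 0.93 and 0.90 over the 17 probes on the 3 arrays, so that an odd probe of the array end met an even probe of the boundary. Other placings were nearly as alike: 151534 to 151550, shifted by 1 probe of each parity, gave r of 0.90, 0.92 and 0.80, and 151540 to 151556 in the reversed order gave 0.80, 0.78 and 0.85. Probe 174017 stood at 3.32, 2.25 and 0.56, and its partner 151538 at 3.12, 2.21 and 0.57. Probe 174019 stood at 2.91, 2.28 and 3.18, and its partner 151540 at 3.33, 2.45 and 3.51, and the even probe 174020, at 0.78, 1.01 and 1.08, met 151541, the odd probe that stood out above. The first probes were less alike: 174015, at 0.72, 1.31 and -0.16, met 151536 at 3.66, 2.53 and 1.05. In wildtype brightness partners could differ, as did 174016, at 13.85, 15.04 and 15.25 log2, and 151537, at 9.61, 9.37 and 9.78. The run was chosen for its signal, these probes share their arrays, and an alternation of high and low ratios by itself raises such an r.

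Of the 19 runs on the whole array that met the same definition, 6 had 1 strand above a log2 ratio of 1 on all 3 arrays, namely these 3 and 3 others, which lay between numbers 113990 and 114597. The even probes of those others averaged 1.83 to 1.97 in *dhp1-1* replicate 1, 1.67 to 1.72 in replicate 2 and 1.57 to 1.86 in *din1Δ*, and the odd probes 0.13 to 0.37, 0.42 to 0.60 and 0.13 to 0.16. In the 13 remaining runs no strand averaged more than 1.06 on any array. The 117 tiles of at least 12 log2 outside these places, which were left out after their values were seen, had median ratios of -0.20, -0.19 and -0.08, and 0 of them were above 1 on all 3 arrays. Of the 17 tiles more than 1.6-fold higher on all 3 arrays, 12 lay at those other runs, 1 in the boundary stretch and 1 in the array end stretch.

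**Figure D4:**
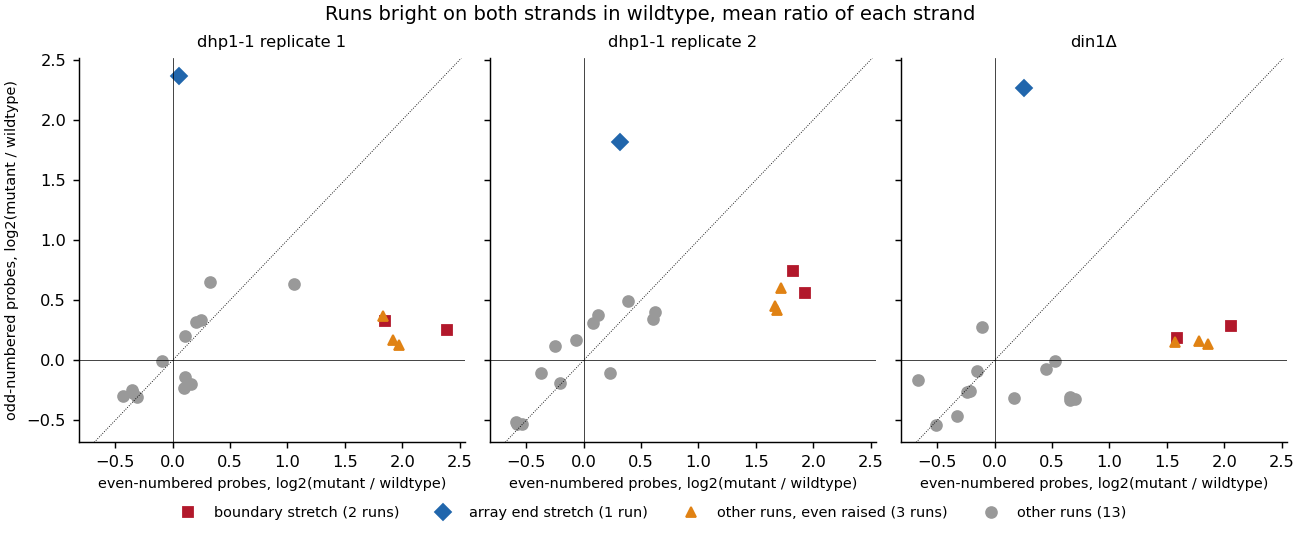
Mean log2(mutant / wildtype) of the even-numbered probes (x axis) and odd-numbered probes (y axis) of each of the 19 runs bright on both strands in wildtype, 1 panel for each array, with the line of equal strands dotted. The 2 boundary runs and the 3 other runs with a raised even strand lie far to the right, at even ratios of 1.57 to 2.39, the array end run lies far up, at odd ratios of 1.81 to 2.37, and the 13 other runs stay at or below 1.06 on either axis.

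Between the boundary runs, 13 probes (151554 to 151566) showed another pattern, in which the arrays differed. They averaged 12.05, 13.89 and 9.42 log2 in the mutant channel of *dhp1-1* replicate 1, replicate 2 and *din1Δ*, and 8.77, 12.17 and 8.86 in the wildtype channel. The mean ratios were 2.32, 1.35 and 0.46. Each measured probe was above 0 on both *dhp1-1* arrays, at 0.85 to 3.97 in replicate 1 and at 1.07 to 1.78 in replicate 2, on both strands, whereas *din1Δ* ranged between -0.34 and 1.10. In replicate 1 the wildtype signal was well above background at 9 of the 13 probes, and both ends of its range came from the others, whose ratios are not exact. Over those 9 probes alone, a filter chosen after seeing the data, replicate 1 ranged between 1.12 and 3.45 with a mean of 2.23. On the *din1Δ* array the wildtype signal was well above background at 8 of the 13 probes. Its lowest ratio, at probe 151563, came from the others. Under the same filter the 7 probes measured in *din1Δ* ranged between -0.09 and 1.10 with a mean of 0.59. The wildtype of replicate 2 was itself bright there, on average at the 89.7th percentile of its array, against the 52.9th and 48.9th percentile in the wildtype of replicate 1 and of *din1Δ*, although replicates 1 and 2 used the same wildtype strain. The high ratio of replicate 1 thus set a bright mutant against a dim wildtype, while in replicate 2 both were bright. Probe 151558 was bright in every channel, with ratios of 1.12, 1.15 and 1.10.

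The 4 probes after the array end run (174032 to 174035) did the same, at 11.52, 13.64 and 9.31 log2 in the mutant channel and 8.48, 11.94 and 8.90 in the wildtype channel, with ratios of 2.09, 1.41 and 0.35. So did the 76 and 81 probes between the 3 other runs, where the ratios averaged 2.48, 1.26 and 0.47, and 2.37, 1.29 and 0.38. The wildtype channel of replicate 2 stood at 12.14 and 12.12 log2 there, against 8.52 and 8.67 in replicate 1 and 8.65 and 8.73 in the *din1Δ* array. In all 4 places the order of the arrays was the same, with the ratio highest in replicate 1, lower in replicate 2 and lowest in *din1Δ*. These places were chosen after their values were seen. What differed between the wildtype preparations of replicates 1 and 2 was not tested.

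**Figure D5:**
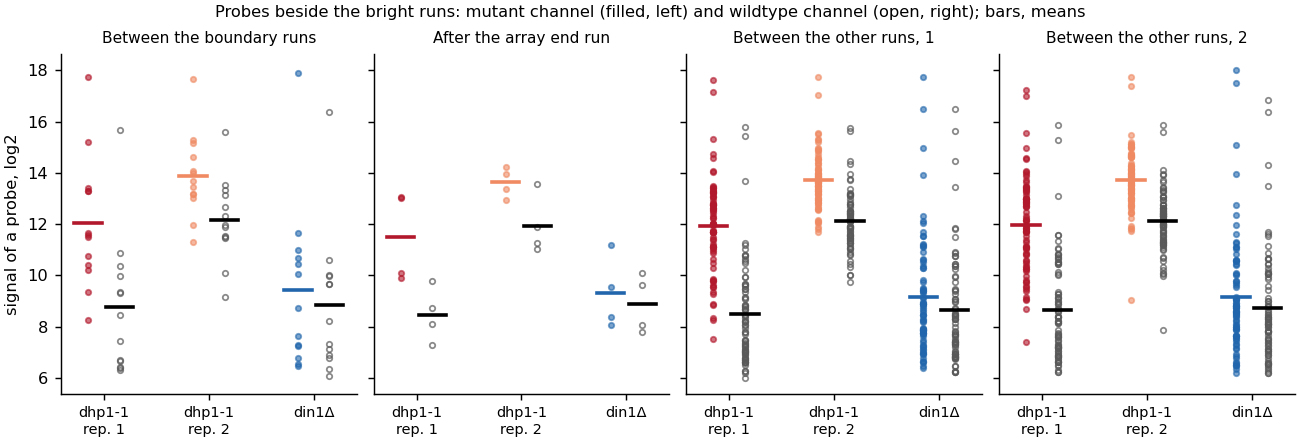
Signal of each probe (log2, y axis) in the mutant channel (filled, left of each pair) and the wildtype channel (open, right) on each array (x axis), with bars at the means, in the probes between the boundary runs, after the array end run and between the 3 other runs with a raised even strand. The mutant lies above the wildtype on both dhp1-1 arrays, and the wildtype of replicate 2, at means of 11.94 to 12.17, lies above that of the other arrays, at 8.48 to 8.90.

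Over the whole boundary stretch *dhp1-1* exceeded *din1Δ* by 0.05 (SE 0.15, adjusted p = 0.890), and over the array end stretch by 0.08 (SE 0.15, adjusted p = 0.814). For *din1Δ*, with 1 array, the fit borrowed the spread of the *dhp1-1* arrays, and the wildtype strains differ. Of the 34 boundary tiles 0 passed a test of the difference between the mutants in either direction by limma (2 higher in *dhp1-1* and 0 lower at an unadjusted p under 0.05), against 8.80% of all tiles higher and 4.60% lower. Of the array end tiles 2 of 34 passed as higher in *dhp1-1* than in *din1Δ* and 0 as lower (4 and 0 unadjusted). By itself *din1Δ* was past 1.6-fold in 1 of 34 tiles of each stretch, both higher and both in the window of a bright run, against 0.31% of all tiles higher and 1.52% lower.

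The 2 tiles that passed each rested on a few neighbouring probes of the odd strand, and of 7 other settings 4 lost the call in window 9 and 5 in window 15. In window 9 of the array end stretch *dhp1-1* stood at 0.17 and 0.00 and *din1Δ* at -0.47, a difference of 0.56 (SE 0.15, adjusted p = 0.0189). Of its 20 probes 4 were below -1 in *din1Δ*, and they were the 4 whose wildtype signal was well above background on that array. In the *din1Δ* channel only 173737, at -2.56, was well above background, so the ratios of the others there are not exact. On the *dhp1-1* arrays, probe 173729 stood at 0.92 and 0.86, and the others, 173731, 173737 and 173739, at 0.05, 0.41 and 0.32 in replicate 1 and at 0.11, -0.17 and 0.29 in replicate 2. In window 15 *dhp1-1* stood at 0.42 and 0.49 and *din1Δ* at -0.02, a difference of 0.47 (SE 0.15, adjusted p = 0.0430). There 5 consecutive odd probes, 173985 to 173993, were above 1 on both *dhp1-1* arrays (2.61 in replicate 1 and 1.93 in replicate 2 at 173985), while *din1Δ* stood between -0.97 and 0.36 on them. The tile of lowest ratio in *din1Δ* after window 9 was the even strand of window 11, at -0.04 and -0.11 in *dhp1-1* and -0.44 in *din1Δ* (difference 0.37, adjusted p = 0.123). Next came the even strand of window 9, at -0.19 and -0.11 in *dhp1-1* and -0.29 in *din1Δ*, and the odd strand of window 11, at 0.21 and 0.05 in *dhp1-1* and -0.19 in *din1Δ*.

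Correlations between arrays describe how far the tiles kept their order. Over 34 tiles the ratios of *dhp1-1* replicates 1 and 2 correlated with r of 0.93 in the boundary stretch and 0.71 in the array end stretch, and without the tiles of 12 log2 or more with 0.85 (32 tiles) and 0.52 (33 tiles). Between *dhp1-1* replicate 1 and *din1Δ*, which share a slide, r was 0.92 and 0.58, and without those tiles 0.73 and 0.01. Between replicate 2 and *din1Δ* it was 0.86 and 0.48, and without those tiles 0.65 and 0.13. Tiles that hold bright run probes but lie below 12 log2 were kept, namely both tiles of boundary window 8 and the even tile of array end window 16. Over all 8704 tiles r was 0.84 between the replicates. It was 0.40 between replicate 1 and *din1Δ* and 0.12 between replicate 2 and *din1Δ*. These are descriptions over tiles that share arrays.

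Repeated spots show how far a single probe can be read. Over 300 probes that the array carries on 6 further spots, the median SD of the log2 ratio between spots was 0.13, 0.16 and 0.13 on the 3 arrays. One of them, 173621, lies in the dim part of the array end stretch. Its 6 spots ranged between -0.90 and 0.23 and between -0.86 and -0.06 on the *dhp1-1* arrays and between -0.77 and -0.38 on the *din1Δ* array, with SDs of 0.44, 0.31 and 0.15. None of its spots was well above background in the mutant channel.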

How the data were processed

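Two-colour tiling array files were used as the authors deposited them. The authors scanned each array and extracted it with Agilent Feature Extraction 10.7.3.1, which gave median intensity per spot and channel, a log10 ratio and its p-value; these intensity, log10 and p-value columns were read from the deposited files. The deposited log2 table holds the same ratios, set to 0 where that p-value was 0.05 or more (64.4%, 72.5% and 71.1% of probes). Columns of other samples were not present (0).

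Median intensities were background-corrected (normexp, offset 50) and loess-normalised within each array with limma 3.58.1 in R 4.3.3; control and outlier spots were left out (1, 4 and 3 outlier spots in the boundary stretch, and 3, 6 and 2 in the array end stretch, left out of the means). Depth does not apply to arrays; their number limits the precision. Ratios were averaged over tiles of 20 same-strand probes and over each stretch, and all 8715 features were fitted with lmFit and eBayes, with 1 coefficient per mutant and Benjamini-Hochberg adjustment. The script was tested on simulated data. Settings were changed 1 at a time. In each stretch the 4 highest and 4 lowest tiles in each mutant, the 3 brightest windows and the first and last window are named, with other called tiles; members and lists were chosen with earlier results of these data known. Coordinates were not used, since the gene table's assembly differs from the array's build.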

Additional observations from a re-analysis of the deposited data

Results flagged for a closer look

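A test of *dhp1-1* minus *din1Δ* passed at 2 tiles, both on the odd strand of the array end stretch. In window 9 the difference was 0.56 on the log2 scale (limma, adjusted p = 0.0189). Over 7 other settings it ranged between 0.14, with the median over probes (adjusted p = 0.696), and 2.91, once probes had to exceed background in the mutant and the wildtype channel. That last value rests on 1 probe in *din1Δ*, since the low *din1Δ* signal itself removed the others, and its p is not given. The call was lost in 4 of the 7 settings. In window 15 the difference was 0.47 (adjusted p = 0.0430), and it ranged between -0.01, with the median over probes (adjusted p = 0.974), and 0.86, with the same background filter. The lowest adjusted p of window 15 over these settings was 0.00298, with the background filter on 1 channel, and the call was lost in 5 of the 7. With 1 *din1Δ* array and another wildtype strain beside it, mutant, wildtype strain and array cannot be told apart.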

How the results depend on the processing

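No paired analysis was possible because *din1Δ* has 1 array and so only 1 replicate number in common with *dhp1-1*. Within the slide that *dhp1-1* replicate 1 and *din1Δ* share, their difference, with no test, was 0.06 in the boundary and 0.04 in the array end stretch. The *dhp1-1* ratio kept its direction in both stretches under all settings. It stood at 0.08 to 0.26 in the boundary stretch and 0.01 to 0.18 in the array end stretch. It passed the test for the even boundary probes (0.24), those of the bright runs included. Without the windows of the bright runs, an alternative chosen after seeing the data, the boundary value over both strands was 0.0835. Without replicate 1 or 2 the *dhp1-1* ratio was 0.17 and 0.20 (boundary) and 0.13 and 0.06 (array end). The difference between the mutants changed sign with the median over probes in the boundary stretch (-0.00110) and with median centring in the array end stretch (-0.00406), and was 0.0235 in the boundary stretch without the bright runs. The *din1Δ* boundary value was 0.18 with the scanner ratio, 0.16 with median centring, 0.19 and 0.20 with the background filters (1 channel, both), 0.0818 with odd and 0.19 with even probes, 0.0821 with the median over probes and 0.0600 without the bright runs.

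Counts moved more. Tiles higher in *dhp1-1* numbered 0 with the deposited table in each stretch, 5 (boundary) and 4 (array end) with median centring, 4 and 4 with the median over probes and 4 in the array end stretch with the scanner ratio; a single replicate, judged by 1.6-fold, left 2 in the boundary and 1 to 2 in the array end stretch. Tiles lower in *dhp1-1* numbered 0 (deposited table, or a single replicate) and 3 (each background filter) in the boundary stretch, and 2 (median centring), 5 and 4 (background filters) in the array end stretch. Tiles past 1.6-fold in *din1Δ* at the array end numbered 2 (scanner ratio, deposited table), 4 (each background filter) and 0 (median over probes). With the deposited table only 12 tiles of the array were higher and 3 lower, against 1641 and 905. The raised strand of each bright run stayed between 1.36 and 2.66 on every array under the 5 settings tried; the cause of the remaining shifts was not tested.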
